A study of Mus musculus with 8 samples.

Results

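The integrated stress response and the unfolded protein response were followed through 38 listed genes in mouse embryonic stem (ES) cells after siRNA against Tet1. The genes were taken by symbol from a list that uses no measured value in its rule but was drawn up with earlier results of these data known, and 37 of the 38 had a probe set among 15267 measured genes. Pycr1, a proline synthesis gene, had none. They fell into 4 regulators, 20 measured targets of the transcription factor Atf4, and 13 chaperones, folding enzymes and degradation factors of the endoplasmic reticulum (ER).

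Expression was measured on 8 Affymetrix arrays hybridised with total RNA of E14Tg2a cells, an established mouse ES cell line. The cells had been transfected with either of 2 siRNAs against Tet1 or, as controls, with an siRNA against firefly luciferase, a gene that mouse cells lack, and were taken at 96 h. A further group received siRNA 1 and was taken at 48 h. Each of the 4 groups had 2 arrays, numbered 1 and 2 below. No untransfected cells and no control at 48 h were analysed here, so at 48 h time and siRNA cannot be told apart. The labels do not state whether both arrays of a group stem from separate cultures. The p-values thus reflect the spread among arrays alone, and that spread may be technical. The level of Tet1 was not analysed here. A level below is a log2 value normalised by robust multi-array average (RMA). A difference is a log2 fold change ± its standard error (SE) from limma, called at a Benjamini-Hochberg adjusted p below 0.05 over all 15267 genes.

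The integrated stress response starts when kinases phosphorylate the initiation factor eIF2. Global translation slows, while the mRNA of Atf4 is translated more, and Atf4 with C/EBP partners then switches on genes for amino acid synthesis, redox balance and, under lasting stress, cell death. The unfolded protein response has 3 sensors in the ER membrane. The kinase Perk feeds into eIF2, Ire1 (Ern1) splices the mRNA of Xbp1, and Atf6 is cut to release a transcription factor. Xbp1 and Atf6 induce ER chaperones. Because Atf4 and Xbp1 are controlled in large part after transcription, the array values describe their mRNA alone, and the value for Xbp1 does not separate the spliced form.

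Each class is known for sequence elements in its promoters. RefSeq promoter windows (GRCm38.p6, 250 bases before to 50 after the start) were matched for 35 of the 38 genes, all but Hyou1, Atf6 and Manf. The core of the C/EBP-ATF response element, TGATGNAA on either strand, was found in 7 of 21 Atf4 targets, in 1 of 11 ER genes and in 0 of 3 regulators. In all 32851 windows its share was 3.97%. These shares over all windows are per window, whereas a gene counted with a match in any of its windows. The 35 genes had 38 windows, since Atf5, Psat1 and Vldlr, all Atf4 targets, had more than 1. The ER stress element (CCAAT and CCACG parted by 9 bases, either strand) was found in 6 of 11 ER genes, in 0 of 21 Atf4 targets and in 0 of 3 regulators, against 0.119% of all windows. The UPR element TGACGTGG was found in 0 of the 35 genes and in 0.676% of all windows. The motifs did not overlap in these genes. A match describes letters in the window and no binding.

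Windows of 3 Atf4 targets, of Herpud1 and of 2 chaperones are printed because they carry these matches and because their genes are set against each other below. Each runs 5′ to 3′ along the gene, and the capitals mark the matched bases.
Chac1 (chr2:119350992-119351291, plus strand): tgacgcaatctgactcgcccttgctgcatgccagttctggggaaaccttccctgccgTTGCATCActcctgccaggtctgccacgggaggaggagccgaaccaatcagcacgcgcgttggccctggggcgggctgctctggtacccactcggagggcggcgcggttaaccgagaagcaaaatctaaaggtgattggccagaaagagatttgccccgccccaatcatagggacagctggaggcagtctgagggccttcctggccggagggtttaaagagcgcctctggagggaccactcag
Nupr1 (chr7:126625421-126625720, minus strand): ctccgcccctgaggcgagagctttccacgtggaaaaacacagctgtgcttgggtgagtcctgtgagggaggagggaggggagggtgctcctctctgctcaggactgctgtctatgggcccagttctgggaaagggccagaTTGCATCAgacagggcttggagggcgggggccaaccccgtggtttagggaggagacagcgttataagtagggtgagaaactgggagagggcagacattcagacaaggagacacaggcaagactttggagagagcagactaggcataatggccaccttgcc
Asns (chr6:7693160-7693459, minus strand): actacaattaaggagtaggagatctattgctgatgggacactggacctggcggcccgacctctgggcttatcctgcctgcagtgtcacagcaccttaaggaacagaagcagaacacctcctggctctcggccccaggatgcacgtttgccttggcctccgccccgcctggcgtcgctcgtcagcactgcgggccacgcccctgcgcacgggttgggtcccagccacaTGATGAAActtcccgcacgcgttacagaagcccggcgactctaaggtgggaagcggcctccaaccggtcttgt
Herpud1 (chr8:94386179-94386478, plus strand): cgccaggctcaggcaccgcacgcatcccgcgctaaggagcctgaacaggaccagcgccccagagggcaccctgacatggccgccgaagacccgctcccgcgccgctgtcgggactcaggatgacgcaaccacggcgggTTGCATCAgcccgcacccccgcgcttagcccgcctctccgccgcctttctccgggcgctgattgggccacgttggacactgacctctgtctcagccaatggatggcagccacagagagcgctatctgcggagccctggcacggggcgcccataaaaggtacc
Hspa5 (chr2:34771840-34772139, plus strand): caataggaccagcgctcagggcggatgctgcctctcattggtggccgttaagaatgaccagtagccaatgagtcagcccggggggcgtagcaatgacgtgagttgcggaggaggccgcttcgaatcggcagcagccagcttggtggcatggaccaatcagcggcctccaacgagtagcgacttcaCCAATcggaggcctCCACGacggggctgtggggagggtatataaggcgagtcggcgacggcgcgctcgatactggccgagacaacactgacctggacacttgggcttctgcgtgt
Hsp90b1 (chr10:86705395-86705694, minus strand): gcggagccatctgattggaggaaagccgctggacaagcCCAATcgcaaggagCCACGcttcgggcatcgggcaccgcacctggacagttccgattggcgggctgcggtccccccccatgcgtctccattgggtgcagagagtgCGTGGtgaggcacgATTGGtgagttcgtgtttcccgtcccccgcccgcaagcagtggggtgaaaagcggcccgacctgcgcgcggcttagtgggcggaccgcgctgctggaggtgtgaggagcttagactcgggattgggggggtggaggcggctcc
Chac1, Nupr1 and Herpud1 carry the same 8 letters, TTGCATCA, which is the core read on the opposite strand. Atf3 and Vldlr carry these letters too, Trib3 carries TTACATCA, and Asns carries TGATGAAA. Pycr1, which was not measured, carries TGATGCAA. The ER stress element of Hspa5 spans positions -65 to -47 relative to the start. Hsp90b1 carries 2 of them, on opposite strands.

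All 12 ES cell markers were measured, and on every array their mean lay between 11.94 and 12.34. With both siRNAs at 96 h 4 of them were lower and 2 higher than in controls, beside 12.2% and 12.0% of all genes. The mean hides larger shifts of single markers. Nanog averaged 10.97 with siRNA 1 and 11.36 with siRNA 2, against 12.25 in controls, and Esrrb 8.53 and 9.01, against 9.88. Utf1 went the other way, at 12.05 and 11.88 against 11.39. The 96 h arrays also carried lung transcripts, controls included. Of 21 lung epithelial markers 17 were measured. Their summed signal on the linear scale was 8512 and 9726 with siRNA 1, 7602 and 12328 with siRNA 2, and 11243 and 11445 in controls at 96 h, but 1700 and 1765 at 48 h. Scgb1a1, the secretoglobin of club cells, averaged 12.38 with siRNA 1, 12.39 with siRNA 2 and 12.65 in controls at 96 h, against 3.87 at 48 h. The source of the lung transcripts is not known and was not tested. For any marker in RNA from a whole culture, fewer cells of a type and less RNA per cell cannot be told apart.

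**Figure D1:**
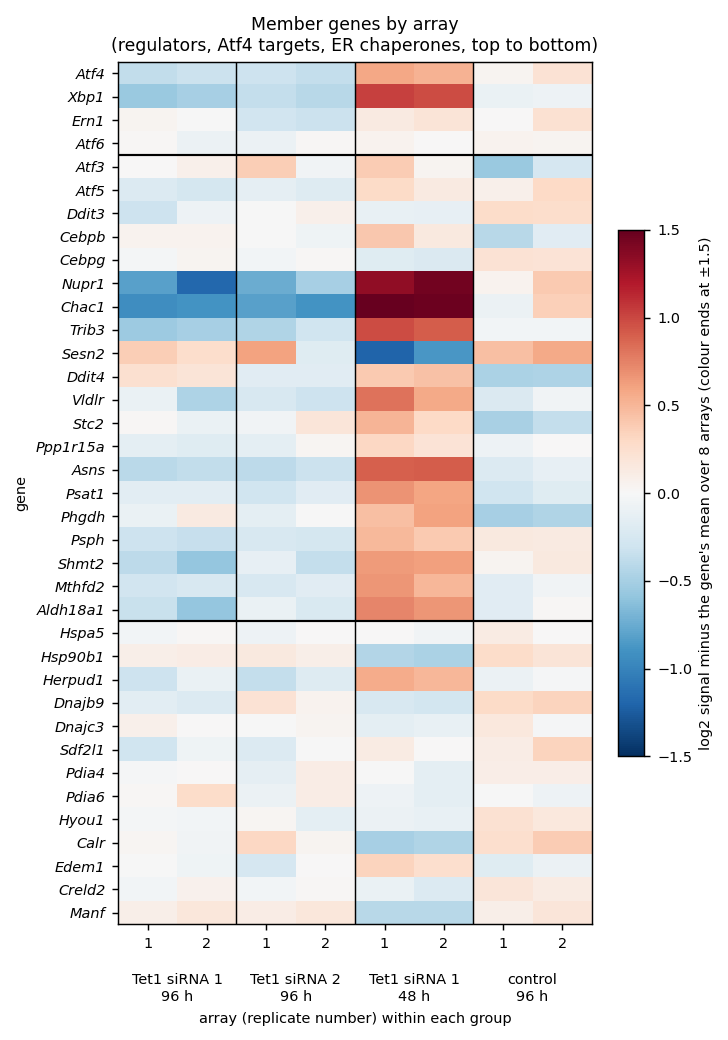
The map gives the log2 signal of each of the 37 measured genes on each array, less the gene's mean over the 8 arrays, in red where above and blue where below. The 48 h arrays of siRNA 1 are red through most Atf4 targets, with Sesn2 in blue, and the 4 siRNA arrays of 96 h are bluest at Nupr1 and Chac1.

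The first comparison asked which of these genes differed with both Tet1 siRNAs at 96 h. Of the 37 genes, 15 were lower and 4 higher, and 18 were not called. Over all genes 12.2% were called lower and 12.0% higher. The median difference of the 37 was -0.19, beside -0.021 for all genes. Atf4, Xbp1, Nupr1, Chac1, Trib3 and Psph were lower and Ddit4 was higher in the main model and in each of the 17 other settings tried, and these are 7 of the 19 calls. Fewer of the 37 genes were called lower without control array 2, and fewer higher without control array 1, and the same held over all genes. Leaving out either array of a group outside a comparison gives the same fit. For comparisons at 96 h that is also the fit without both 48 h arrays, so the settings are not all distinct.

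Among the regulators, Atf4, the transcription factor at the centre of the integrated stress response, read 10.52 and 10.56 with siRNA 1 and 10.57 and 10.53 with siRNA 2, against 10.92 and 11.10 in controls. All 4 siRNA arrays lay below both control arrays. The share of all genes that separate in this way was not counted. Here and below, such separation thus describes the arrays and adds nothing to a call. Atf4 fell by 0.47 ± 0.072, a 1.38-fold difference (adjusted p = 0.00261, limma). Xbp1, the factor whose mRNA Ire1 splices, read 9.86 and 9.93 with siRNA 1 and 10.06 and 10.01 with siRNA 2, against 10.32 and 10.35 in controls. The siRNA groups again lay below the controls without overlap, and Xbp1 fell by 0.37 ± 0.062 (adjusted p = 0.00396). Ern1, the gene of Ire1, read 6.21 and 6.16 with siRNA 1 and 5.88 and 5.84 with siRNA 2, against 6.17 and 6.40 in controls. Here the siRNA 1 arrays overlapped the controls and the siRNA 2 arrays did not. Ern1 fell by 0.26 ± 0.078 (adjusted p = 0.0431), and that call was lost whichever array was left out, control array 1 excepted (7 of 8 such fits, adjusted p 0.0650 to 0.311). Atf6, the third sensor, read 7.34 and 7.23 with siRNA 1 and 7.23 and 7.33 with siRNA 2, against 7.37 and 7.36 in controls. The siRNA arrays lay just below the controls, with a difference of -0.085 ± 0.067 (adjusted p = 0.398), which was not called.

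The Atf4 targets went both ways. Of 20 measured, 9 were lower and 4 higher, beside 12.2% and 12.0% of all genes, and 7 were not called. Their median was -0.21. Among 6 transcription factors 4 were lower and 1 higher. Nupr1, a small stress-induced chromatin protein, read 5.31 and 4.95 with siRNA 1 and 5.38 and 5.63 with siRNA 2, against 6.17 and 6.52 in controls. Its siRNA arrays all lay below the controls, and it fell by 1.03 ± 0.13 (adjusted p = 0.00122), the largest fall of the 37. Ddit3, the gene of the death-promoting factor Chop, read 7.28 and 7.50 with siRNA 1 and 7.58 and 7.66 with siRNA 2, against 7.86 and 7.85 in controls. It fell by 0.35 ± 0.077 (adjusted p = 0.0135), without overlap. Atf5, a relative of Atf4 that is also controlled by translation, read 7.81 and 7.74 with siRNA 1 and 7.87 and 7.82 with siRNA 2, against 8.09 and 8.31 in controls. It fell by 0.39 ± 0.084 (adjusted p = 0.0125), again with no overlap. Cebpg, a C/EBP partner of Atf4, read 8.02 and 8.09 with siRNA 1 and 8.0 and 8.06 with siRNA 2, against 8.26 and 8.24 in controls. It fell by 0.21 ± 0.062 (adjusted p = 0.0410), and no siRNA array reached a control array. Atf3, an early stress factor, went the other way and read 5.86 and 5.92 with siRNA 1 and 6.22 and 5.79 with siRNA 2, against 5.29 and 5.59 in controls. It rose by 0.51 ± 0.15 (adjusted p = 0.0385), and no siRNA array overlapped the controls. Cebpb differed by 0.30 ± 0.097 (adjusted p = 0.0554) and was not called. It was called higher without dim genes, those whose mean lay below the median gene (adjusted p = 0.0143), with an intensity trend (0.0299), with a robust trend (0.0291), and without both or either of the 48 h arrays (0.0459). Without control array 2 it was called too (0.42, adjusted p = 0.0441). The Ddit3 call was lost without control array 1 (adjusted p = 0.0714) or control array 2 (0.0649) and the Atf5 call without control array 2 (adjusted p = 0.103). The Atf3 call was lost without control array 1 (adjusted p = 0.221), siRNA 1 array 1 (0.0705), siRNA 1 array 2 (0.0893) or siRNA 2 array 1 (0.0701), and the Cebpg call whichever array was left out (8 of 8 such fits, adjusted p 0.0589 to 0.165).

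Among 7 effectors and feedback genes, 2 were lower and 2 higher. Chac1, which degrades the antioxidant glutathione, read 6.18 and 6.22 with siRNA 1 and 6.29 and 6.22 with siRNA 2, against 7.02 and 7.46 in controls. The siRNA arrays lay close together and under the controls, and Chac1 fell by 1.01 ± 0.13, or 2.02-fold (adjusted p = 0.00120). Trib3, a pseudokinase that restrains Atf4 and Chop activity, read 7.46 and 7.51 with siRNA 1 and 7.56 and 7.72 with siRNA 2, against 7.97 and 7.96 in controls. It fell by 0.40 ± 0.069 (adjusted p = 0.00434), with all siRNA arrays below the controls. Ddit4, an inhibitor of the growth kinase mTORC1, read 10.82 and 10.78 with siRNA 1 and 10.41 and 10.41 with siRNA 2, against 10.10 and 10.12 in controls. It rose by 0.49 ± 0.060 (adjusted p = 0.000820), with siRNA 1 above siRNA 2 and both above the controls. Stc2, a secreted glycoprotein, read 6.81 and 6.69 with siRNA 1 and 6.75 and 6.98 with siRNA 2, against 6.32 and 6.44 in controls. It rose by 0.43 ± 0.096 (adjusted p = 0.0141) without overlap, a call lost without control array 1 (adjusted p = 0.0934). The differences of Sesn2, Vldlr and Ppp1r15a were -0.25 ± 0.19, -0.15 ± 0.12 and -0.082 ± 0.076, and none was called. Without siRNA 2 array 1, Sesn2 was called lower (-0.45, adjusted p = 0.0280). With siRNA 2 alone its difference of -0.31 ± 0.22 became -0.70 without that array (adjusted p = 0.0287). The siRNA 2 arrays of Sesn2 read 10.05 and 9.26.

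Enzymes of serine, one-carbon, asparagine and proline synthesis were also divided. Of 7 measured, 3 were lower, 1 was higher and 3 were not called. Psph, the last enzyme of serine synthesis, read 9.69 and 9.67 with siRNA 1 and 9.77 and 9.75 with siRNA 2, against 10.16 and 10.14 in controls. It fell by 0.43 ± 0.062 (adjusted p = 0.00191), with the siRNA arrays tightly grouped below the controls. Phgdh, the first enzyme of the same pathway, read 10.10 and 10.32 with siRNA 1 and 10.05 and 10.18 with siRNA 2, against 9.70 and 9.74 in controls. It rose by 0.44 ± 0.088 (adjusted p = 0.00844), and the groups did not overlap. Psat1, the step between them, differed by 0.044 ± 0.071 (adjusted p = 0.698). The 3 serine enzymes thus stood lower, higher and not called. Shmt2, which moves a carbon of serine to folate in mitochondria, read 9.37 and 9.18 with siRNA 1 and 9.63 and 9.40 with siRNA 2, against 9.80 and 9.91 in controls. It fell by 0.46 ± 0.090 (adjusted p = 0.00782), and its 4 siRNA arrays lay below the controls. Asns, asparagine synthetase, read 10.48 and 10.52 with siRNA 1 and 10.48 and 10.56 with siRNA 2, against 10.68 and 10.75 in controls. It fell by 0.21 ± 0.063 (adjusted p = 0.0475), close to the threshold and without overlap of the arrays. Mthfd2 and Aldh18a1 differed by -0.13 ± 0.075 and -0.24 ± 0.093 and were not called, although Aldh18a1 was called lower without dim genes (adjusted p = 0.0366). The Phgdh call was lost without control array 1 (adjusted p = 0.0534), the Shmt2 call without control array 2 (adjusted p = 0.0604), and the Asns call whichever array was left out (8 of 8 such fits, adjusted p 0.0644 to 0.253).

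**Figure D2:**
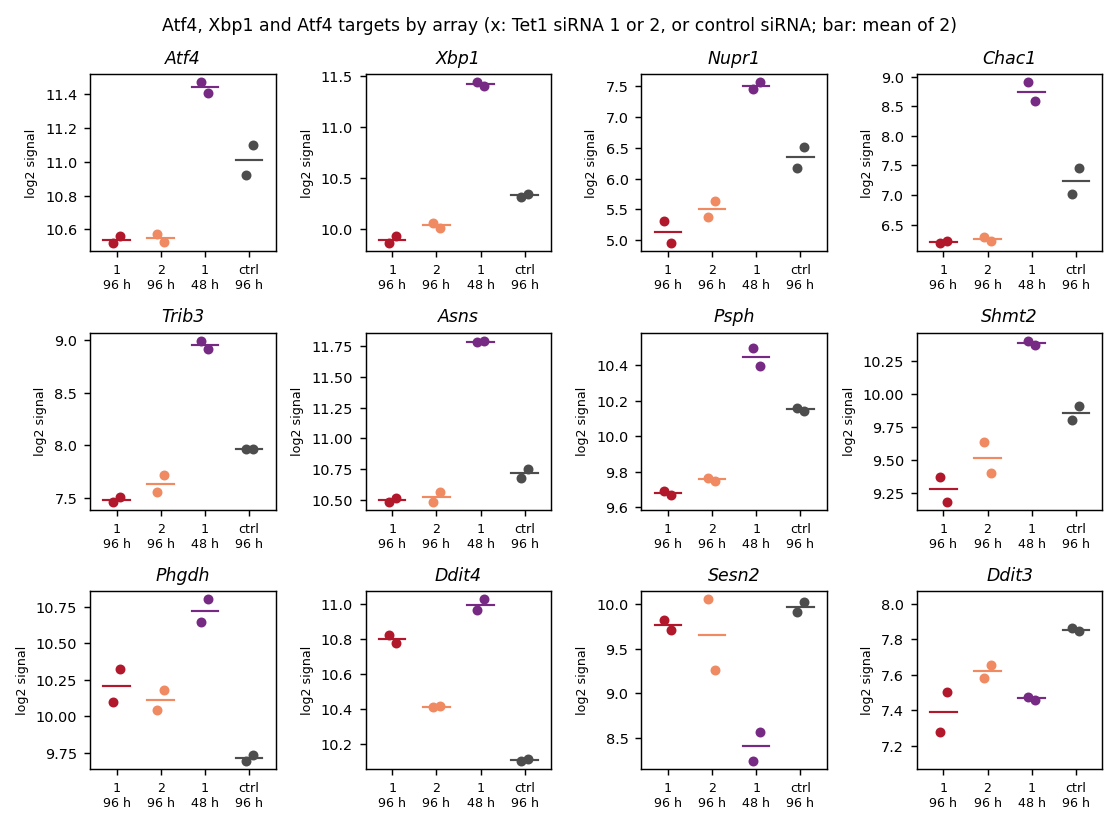
Each panel plots the log2 signal of Atf4, Xbp1 or an Atf4 target on every array (points) with the mean of its group of 2 (bar). From left to right stand siRNA 1 and siRNA 2 at 96 h, siRNA 1 at 48 h and the control at 96 h. In the Chac1 panel the siRNA arrays of 96 h lie between 6.18 and 6.29 and the controls at 7.02 and 7.46.

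Among the ER genes fewer were called than among the Atf4 targets. Of 13, 3 were lower and 0 higher, beside 12.2% and 12.0% of all genes, and 10 were not called. Their median was -0.12. Fewer were called lower without control array 2, siRNA 1 array 1 or either 48 h array, and over all genes fewer were called lower too. Hspa5, the gene of BiP and the most general reporter of ER stress, read 12.13 and 12.18 with siRNA 1 and 12.09 and 12.17 with siRNA 2, against 12.29 and 12.17 in controls. Control array 2 lay among the siRNA arrays, and the difference was -0.088 ± 0.067 (adjusted p = 0.382). Its 95% confidence interval ran from -0.24 to 0.07. Dnajb9, a co-chaperone of BiP that Xbp1 induces, read 8.80 and 8.76 with siRNA 1 and 9.18 and 9.02 with siRNA 2, against 9.26 and 9.30 in controls. All siRNA arrays lay below the controls, those of siRNA 1 lowest, and it fell by 0.34 ± 0.070 (adjusted p = 0.00996). Sdf2l1, a partner of BiP complexes, read 8.76 and 9.0 with siRNA 1 and 8.85 and 9.06 with siRNA 2, against 9.17 and 9.39 in controls. It fell by 0.36 ± 0.10 (adjusted p = 0.0387), without overlap. Hyou1, a large ER chaperone, read 6.66 and 6.65 with siRNA 1 and 6.73 and 6.55 with siRNA 2, against 6.92 and 6.85 in controls. It fell by 0.24 ± 0.071 (adjusted p = 0.0441) without overlap. The Dnajb9 call was lost without control array 2 (adjusted p = 0.0675), the Sdf2l1 call without control array 2 (adjusted p = 0.244), siRNA 1 array 1 (0.0894), siRNA 2 array 1 (0.0857), 48 h array 1 (0.0610) or 48 h array 2 (0.0610) and the Hyou1 call whichever array was left out, siRNA 2 array 1 excepted (7 of 8 such fits, adjusted p 0.0670 to 0.211).

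The other ER genes ranged from -0.23 ± 0.089 for Calr, a lectin chaperone for glycoproteins, to 0.12 ± 0.093 for Pdia6, a protein disulphide isomerase. Herpud1, a degradation factor, and Creld2 and Manf, secreted ER stress proteins, differed by -0.19 ± 0.084, -0.15 ± 0.069 and 0.00069 ± 0.065. The co-chaperone Dnajc3, the isomerase Pdia4, the chaperone Hsp90b1 and the mannosidase-like Edem1 differed by -0.042 ± 0.072, -0.10 ± 0.083, -0.12 ± 0.062 and 0.058 ± 0.084. None of these 9 was called in the main model. Calr was called lower without dim genes (adjusted p = 0.0331), with an intensity trend (0.0265), with a robust trend (0.0290) and without siRNA 2 array 1 (-0.30, adjusted p = 0.0342). Hsp90b1 was called lower with a robust trend (adjusted p = 0.0468). Both carry an ER stress element in the window. So do Hspa5, Dnajc3, Pdia6 and Creld2, which were called in no setting of this comparison. Of the 3 genes called in the main model, Dnajb9 and Sdf2l1 have no match and Hyou1 no window. No test was made of the difference between the Atf4 targets and the ER genes as classes. Over the same arrays 3 of 17 lung markers were lower and 0 higher, beside 12.2% and 12.0% of all genes, with a median of -0.092. With the mean of these markers as a covariate 11 of the 37 genes were lower and 3 higher, beside 1401 and 1371 of all genes. Ern1, Cebpg, Stc2, Asns and Hyou1 lost their calls (limma, adjusted p 0.0527 to 0.126). Since the model holds a mean per group, the slope of this covariate rests on lung differences within groups. These were widest with siRNA 2, where the arrays averaged 7.63 and 7.16. The fit therefore cannot settle what part lung signal plays.

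**Figure D3:**
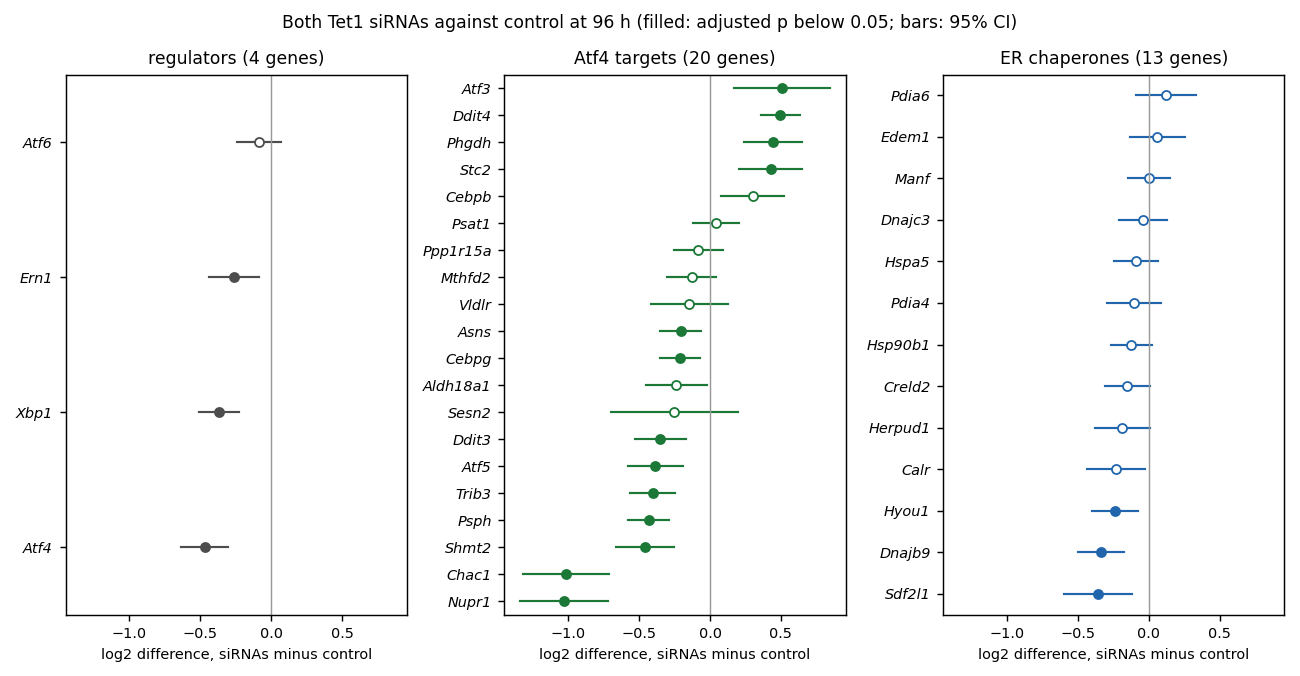
The plot gives the log2 difference of both Tet1 siRNAs minus control at 96 h for each gene, by class, with its 95% confidence interval. Filled points passed the adjusted p threshold. Nupr1 and Chac1 lie lowest at -1.03 and -1.01, and the ER genes lie between -0.36 and 0.12.

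Each siRNA was then set against the same control arrays on its own. With siRNA 1, 12 of the 37 genes were lower and 3 higher, beside 11.2% lower and 11.6% higher of all genes. The calls with the smallest adjusted p were Ddit4 (0.69 ± 0.069), Nupr1 (-1.22 ± 0.16), Chac1 (-1.04 ± 0.15), Psph (-0.47 ± 0.072), Dnajb9 (-0.50 ± 0.080) and Xbp1 (-0.44 ± 0.071). These 6 calls held whichever array was left out. Without siRNA 1 array 2 fewer genes were called higher, among the 37 and over all genes. With siRNA 2, 8 were lower and 3 higher, beside 7.66% and 8.01% of all genes. The smallest adjusted p belonged to Chac1 (-0.99 ± 0.15), Atf4 (-0.46 ± 0.083), Psph (-0.39 ± 0.072), Nupr1 (-0.84 ± 0.16), Ern1 (-0.42 ± 0.090) and, tied, Stc2 (0.48 ± 0.11) and Ddit4 (0.30 ± 0.069). Fewer were called in each direction without either control array or either siRNA 2 array, among the 37 and over all genes. Chac1 was called whichever array was left out, with adjusted p = 0.0657 when the variances were not moderated. Atf4 lost its call without control array 2 (adjusted p = 0.0533) or siRNA 2 array 2 (0.0532), Nupr1 without control array 2 (adjusted p = 0.0502) or siRNA 2 array 1 (0.0579), Psph without siRNA 2 array 2 (adjusted p = 0.0530), Ern1 without control array 2 (adjusted p = 0.0924), siRNA 2 array 1 (0.0600) or siRNA 2 array 2 (0.0861) and Stc2 without control array 1 (adjusted p = 0.105), control array 2 (0.0525) or siRNA 2 array 2 (0.128). Ddit4 lost it without control array 1 (adjusted p = 0.0966), control array 2 (0.0909), siRNA 2 array 1 (0.0830) or siRNA 2 array 2 (0.0967).

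The siRNAs were then set against each other at 96 h, which tests the difference between their effects. Of the 37 genes 0 were called (limma), as against 0% of all genes higher and 0.0197% lower, and 7 had an unadjusted p below 0.05, which 10.6% of all genes had. Ddit4 showed the largest difference, 0.39 ± 0.069 in favour of siRNA 1 (95% confidence interval 0.23 to 0.55, adjusted p = 0.148). With an intensity trend in the variance it was called (adjusted p = 0.00879). Ern1 was higher on both siRNA 1 arrays (6.21 and 6.16) than on both siRNA 2 arrays (5.88 and 5.84), by 0.32 ± 0.090 (adjusted p = 0.270), and Dnajb9 differed by -0.32 ± 0.080 (adjusted p = 0.226). For Atf4 the difference was -0.0099 ± 0.083 (interval -0.20 to 0.18) and for Chac1 -0.053 ± 0.15 (interval -0.41 to 0.30). These intervals give the differences that the data allow, and no equality was shown.

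The 96 h arrays of siRNA 1 were next set against its 48 h arrays. Of the 37 genes, 18 were lower and 5 higher at 96 h, and 14 were not called, beside 18.5% lower and 19.2% higher of all genes. Of 20 Atf4 targets 14 were lower and 2 higher, with a median of -0.64. Of 13 ER genes 2 were lower and 3 higher, with a median of 0.075. The median over all genes was -0.032. The lung markers moved with the same arrays: 10 of 17 were higher at 96 h, 0 were lower, and their median difference was 1.19. Of 12 fibroblast markers 6 were higher and 1 lower, and of 6 measured blood and endothelial markers 3 were higher and 1 lower. Time and these signals cannot be told apart in this comparison.

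The classes can be set side by side through their mean log2 level on each array, a description with no test. The 20 Atf4 targets averaged 8.23 and 8.19 with siRNA 1 and 8.28 and 8.25 with siRNA 2 at 96 h, 8.96 and 8.88 at 48 h, and 8.33 and 8.46 in controls. The 13 ER genes averaged 9.70 and 9.75 with siRNA 1 and 9.72 and 9.77 with siRNA 2 at 96 h, 9.67 and 9.62 at 48 h, and 9.86 and 9.87 in controls. The Atf4 targets were thus highest at 48 h, where the ER genes were lowest, and in both classes the siRNA arrays of 96 h lay below the controls.

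Atf4 read 10.52 and 10.56 at 96 h, against 11.47 and 11.41 at 48 h, with a difference of -0.90 ± 0.083 (adjusted p = 0.000152). Xbp1 read 9.86 and 9.93 at 96 h, against 11.45 and 11.40 at 48 h, a difference of -1.53 ± 0.071 (adjusted p = 9.3e-06), the smallest adjusted p of the 37. In both genes the 48 h arrays were the highest of the 8 and all siRNA arrays of 96 h the lowest. Ern1 and Atf6 read 6.21 and 6.16 at 96 h, against 6.30 and 6.36 at 48 h, and 7.34 and 7.23 at 96 h, against 7.37 and 7.32 at 48 h. Their differences of -0.14 ± 0.090 and -0.064 ± 0.077 were not called.

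Chac1 read 6.18 and 6.22 at 96 h, against 8.91 and 8.58 at 48 h, with a difference of -2.54 ± 0.15, or 5.83-fold (adjusted p = 2.4e-05). Nupr1 read 5.31 and 4.95 at 96 h, against 7.46 and 7.57 at 48 h, a difference of -2.38 ± 0.16 (adjusted p = 3.5e-05). Trib3 read 7.46 and 7.51 at 96 h, against 8.99 and 8.92 at 48 h, a difference of -1.47 ± 0.080 (adjusted p = 1.8e-05). In all 3 genes the 48 h arrays stood above every other array. The 7 measured enzymes were all lower at 96 h, and every call held whichever array was left out. Asns read 10.48 and 10.52 at 96 h, against 11.78 and 11.79 at 48 h, a difference of -1.29 ± 0.073 (adjusted p = 1.9e-05). Aldh18a1, of proline synthesis, differed by -1.15 ± 0.11 and Shmt2 by -1.11 ± 0.10. Mthfd2, of mitochondrial one-carbon metabolism, differed by -0.85 ± 0.087, Psat1 by -0.79 ± 0.082, Psph by -0.77 ± 0.072 and Phgdh by -0.51 ± 0.10. The 48 h arrays were the highest of the 8 arrays in each of the 7 enzymes.

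Vldlr, a lipoprotein receptor, differed by -0.97 ± 0.14, Stc2 by -0.45 ± 0.11, Atf5 by -0.45 ± 0.097, and Ppp1r15a, the phosphatase subunit that reverses eIF2 phosphorylation, by -0.43 ± 0.087, and these 4 were called lower. Called the other way were Sesn2 and Cebpg. Sesn2, a sensor of leucine that p53 also induces, read 9.82 and 9.71 at 96 h, against 8.25 and 8.57 at 48 h. It was higher at 96 h by 1.36 ± 0.22 (adjusted p = 0.00231), with both 48 h arrays below every other array. Cebpg was higher by 0.21 ± 0.071 (adjusted p = 0.0493), a call lost whichever array was left out (8 of 8 such fits, adjusted p 0.0618 to 0.201). Ddit3 read 7.28 and 7.50 at 96 h, against 7.47 and 7.46 at 48 h, so that its arrays overlapped in time, and Atf3, Cebpb and Ddit4 were not called either (-0.17 ± 0.17, -0.22 ± 0.11 and -0.20 ± 0.069). Ddit4 was called lower at 96 h with quantile normalisation (-0.26, adjusted p = 0.0252), without dim genes (0.0186), with an intensity trend (0.0107), with a robust trend (0.0134) and without moderated variances (0.0132). The Atf5 call was lost without 48 h array 1 (adjusted p = 0.0553) and the Stc2 call without siRNA 1 array 2 (adjusted p = 0.0824) or 48 h array 1 (0.0906). With Atf5 and Stc2 left aside, leaving out any array ended no call among the 14 lower targets.

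Of the 5 ER genes called, 3 were higher and 2, both degradation factors, were lower. Hsp90b1, the ER form of Hsp90, read 12.77 and 12.79 at 96 h, against 12.24 and 12.21 at 48 h, a difference of 0.55 ± 0.071 (adjusted p = 0.000717). Manf read 11.67 and 11.76 at 96 h, against 11.16 and 11.17 at 48 h, a difference of 0.55 ± 0.076 (adjusted p = 0.000951). Calr read 10.98 and 10.89 at 96 h, against 10.45 and 10.50 at 48 h, a difference of 0.46 ± 0.10 (adjusted p = 0.00885). In these 3 genes both 48 h arrays lay below all arrays of 96 h. Herpud1, of ER-associated degradation, read 7.34 and 7.55 at 96 h, against 8.21 and 8.15 at 48 h, with a difference of -0.73 ± 0.097 (adjusted p = 0.000821). Edem1, which hands misfolded glycoproteins to degradation and is induced through Xbp1, read 8.77 and 8.71 at 96 h, against 9.10 and 9.02 at 48 h, with a difference of -0.32 ± 0.097 (adjusted p = 0.0316). Hspa5 read 12.13 and 12.18 at 96 h, against 12.17 and 12.12 at 48 h, with overlapping arrays and a difference of 0.0089 ± 0.077. The other 7 ER genes ranged from -0.24 ± 0.12 for Sdf2l1 to 0.25 ± 0.11 for Pdia6 and were not called. Pdia6 was called higher at 96 h without siRNA 1 array 1 (0.38, adjusted p = 0.0471), without dim genes (0.0414), with an intensity trend (0.0355) and with a robust trend (0.0385). The Calr call was lost without siRNA 1 array 1 (adjusted p = 0.0528) or 48 h array 1 (0.0509) and the Edem1 call without siRNA 1 array 1 (adjusted p = 0.0778), siRNA 1 array 2 (0.134), 48 h array 1 (0.139) or 48 h array 2 (0.0789). Herpud1 is also the ER gene whose window carries the C/EBP-ATF core, an overlap noticed after its values were seen.

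**Figure D4:**
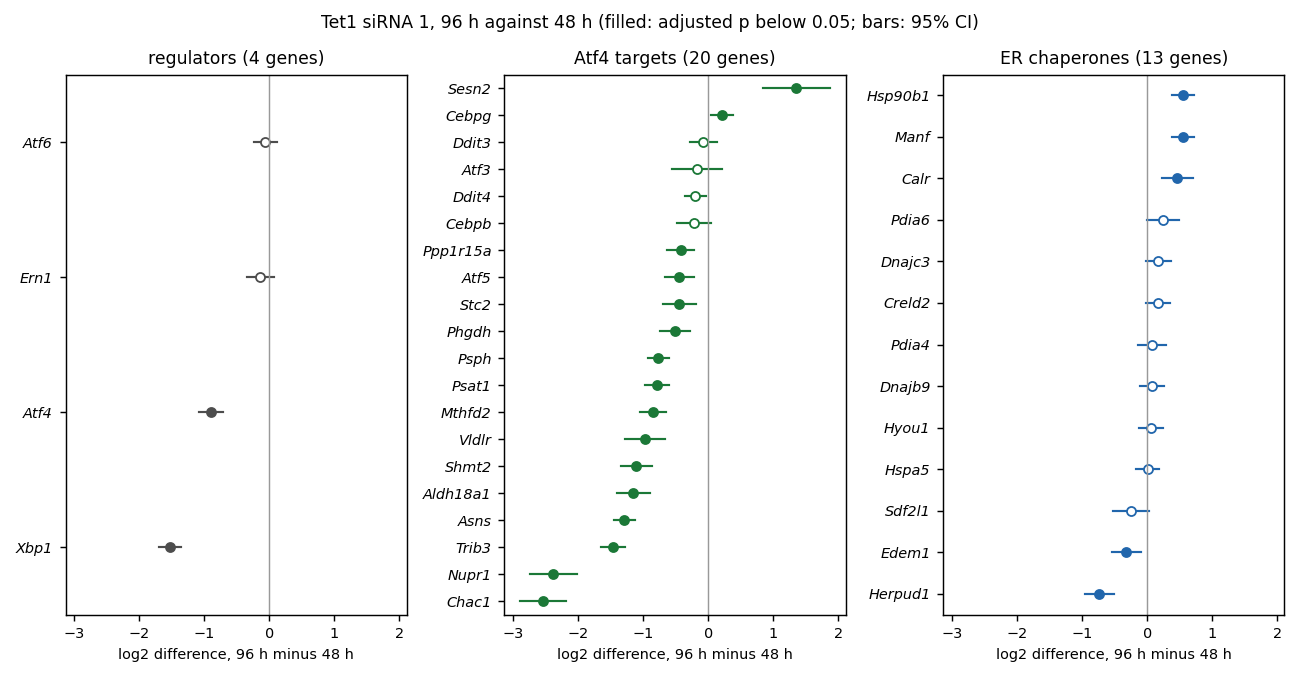
The plot gives the log2 difference of 96 h minus 48 h with siRNA 1 for each gene, by class, with its 95% confidence interval and filled points for called genes. Most Atf4 targets lie left of 0, down to -2.54 for Chac1, and Sesn2 lies at 1.36. The ER genes lie from -0.73 for Herpud1 to 0.55 for Hsp90b1.

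The 48 h arrays of siRNA 1 were also set against the controls of 96 h, from which they differ in both siRNA and time. This comparison shares the 48 h arrays with the one above and the controls with the others. Here 20 of the 37 genes were higher and 9 lower, beside 17.1% and 18.4% of all genes. Of the Atf4 targets 16 of 20 were higher and 3 lower, with a median of 0.73. Of the ER genes 2 were higher and 6 lower, with a median of -0.20. All 7 enzymes were higher, but Psph lost its call without control array 1 (adjusted p = 0.0529), control array 2 (0.0631) or 48 h array 1 (0.0740). Ppp1r15a lost its call without control array 1 (adjusted p = 0.136), control array 2 (0.0636), 48 h array 1 (0.148) or 48 h array 2 (0.0628), and Atf3 without control array 1 (adjusted p = 0.112) or 48 h array 1 (0.141). Of the 17 lung markers 12 were lower and 0 higher, which cannot be told apart from the groups here either. Atf4 read 11.47 and 11.41 at 48 h and 10.92 and 11.10 in controls, a difference of 0.43 ± 0.083 (adjusted p = 0.00545). Xbp1 read 11.45 and 11.40 at 48 h and 10.32 and 10.35 in controls, a difference of 1.09 ± 0.071 (adjusted p = 8.3e-05). Asns read 11.78 and 11.79 at 48 h and 10.68 and 10.75 in controls, a difference of 1.07 ± 0.073 (adjusted p = 9.4e-05). Ddit4 read 10.96 and 11.02 at 48 h and 10.10 and 10.12 in controls, a difference of 0.88 ± 0.069 (adjusted p = 0.000141). These arrays stood well above the controls in each case.

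Trib3, Psat1, Chac1 and Phgdh differed by 0.99 ± 0.080, 0.87 ± 0.082, 1.50 ± 0.15 and 1.0 ± 0.10, and their calls held whichever array was left out. The 3 lower targets were Sesn2 (-1.55 ± 0.22), Cebpg (-0.41 ± 0.071) and Ddit3 (-0.39 ± 0.089), and the Ddit3 call was lost without 48 h array 2 (adjusted p = 0.0618). Sesn2 read 8.25 and 8.57 at 48 h and 9.91 and 10.02 in controls. The 6 lower ER genes were Calr (-0.79 ± 0.10), Hsp90b1 (-0.69 ± 0.071), Dnajb9 (-0.57 ± 0.080), Manf (-0.56 ± 0.076), Creld2 (-0.31 ± 0.080) and Hyou1 (-0.29 ± 0.082). The 2 higher ones were Herpud1 (0.58 ± 0.097) and Edem1 (0.43 ± 0.097). Creld2 lost its call without control array 1 (adjusted p = 0.0905), control array 2 (0.0506) or 48 h array 2 (0.110), Hyou1 without control array 1 (adjusted p = 0.118), control array 2 (0.0603), 48 h array 1 (0.0808) or 48 h array 2 (0.108) and Edem1 without control array 1 (adjusted p = 0.0556) or 48 h array 1 (0.0628). Without control array 1 or 48 h array 1, 1 ER gene was thus called higher in place of 2.

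**Figure D5:**
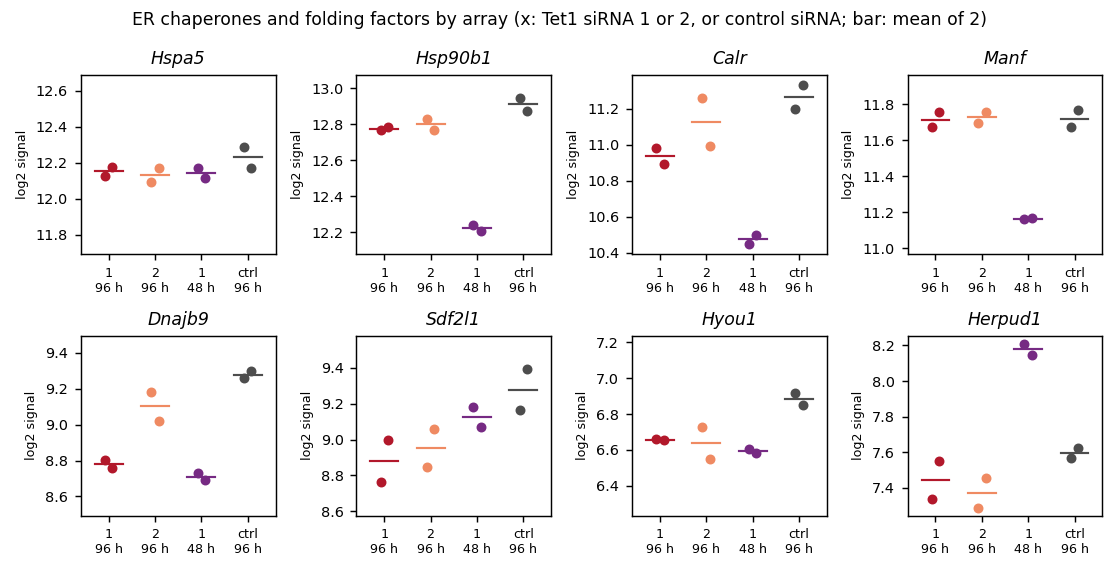
Each panel plots the log2 signal of an ER gene on every array (points) with the mean of its group of 2 (bar), ordered as siRNA 1 and siRNA 2 at 96 h, siRNA 1 at 48 h and the control at 96 h. Hspa5 stays between 12.09 and 12.29, Hsp90b1, Calr and Manf are lowest at 48 h, and Herpud1 is highest there.

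Other genes of the pathway were looked at in lists that hold none of the 37. Their counts stand beside the 12.2% of all genes called lower and the 12.0% called higher. Of 11 measured kinases and subunits around eIF2, 2 were lower and 1 higher with both siRNAs at 96 h, with a median of -0.065. They were Eif2ak3, the gene of Perk (-0.25 ± 0.064, adjusted p = 0.0250), Eif2s2, the beta subunit (-0.24 ± 0.062, adjusted p = 0.0249), and Eif2b3, a subunit of the exchange factor (0.41 ± 0.097, adjusted p = 0.0171). Of 16 cytosolic tRNA synthetases, many of them Atf4 targets, 4 were lower and 1 higher, with a median of -0.041, and Sars (-0.41 ± 0.071, adjusted p = 0.00462), Cars (-0.24 ± 0.059, adjusted p = 0.0198) and Yars (-0.25 ± 0.067, adjusted p = 0.0285) had the smallest adjusted p. Of 22 further Atf4 targets 7 were lower and 6 higher, with a median of -0.066. Gpt2, an alanine transaminase, and Jdp2, a bZIP repressor, were lower (-1.01 ± 0.088, adjusted p = 0.000160, and -1.13 ± 0.15, adjusted p = 0.00114), and the cell cycle inhibitor Cdkn1a was higher (0.63 ± 0.071, adjusted p = 0.000544). Of 25 further secretory pathway genes 2 were lower and 2 higher, with a median of -0.0053, among them Syvn1, a ubiquitin ligase of ER degradation (-0.31 ± 0.072, adjusted p = 0.0172), Creb3l2 (-0.46 ± 0.10, adjusted p = 0.0157) and Ssr1 (0.28 ± 0.072, adjusted p = 0.0260). With the mean of the lung markers as a covariate, Syvn1 (limma, adjusted p = 0.0557), Creb3l2 (0.060), Eif2ak3 (0.0692) and Ssr1 (0.0785) lost their calls. Leaving out single arrays ended no call of Sars, Gpt2, Jdp2 or Cdkn1a. Creb3l2 lost its call without control array 2 (adjusted p = 0.118), Syvn1 without control array 1 (adjusted p = 0.0552) or control array 2 (0.113), Cars without control array 1 (adjusted p = 0.0783) or control array 2 (0.122) and Eif2b3 without control array 1 (adjusted p = 0.0820) or control array 2 (0.0725). Eif2ak3 (4 of 8 such fits, adjusted p 0.0551 to 0.169), Eif2s2 (5 of 8 such fits, adjusted p 0.0554 to 0.115), Yars (5 of 8 such fits, adjusted p 0.0569 to 0.167) and Ssr1 (5 of 8 such fits, adjusted p 0.0524 to 0.117) lost theirs without either control array and without several siRNA arrays.

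Between 96 h and 48 h with siRNA 1, where 18.5% of all genes were lower and 19.2% higher at 96 h, 10 of the 16 tRNA synthetases were lower and 1 higher (median -0.41), and 12 of the 22 further Atf4 targets were lower and 2 higher (median -0.46). Of the 25 further secretory pathway genes 1 was lower and 9 higher (median 0.098), and of the 11 genes around eIF2 4 were lower and 2 higher (median -0.052). Yars differed by -1.22 ± 0.078 (adjusted p = 3e-05), Gpt2 by -1.50 ± 0.10 (adjusted p = 3.9e-05), Jdp2 by -1.76 ± 0.17 (adjusted p = 0.000177) and Eif2s2 by -0.82 ± 0.072 (adjusted p = 0.000117). Sars and Cars differed by -0.57 ± 0.082 and -0.63 ± 0.068, and both were called.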

How the data were processed

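The values deposited by the authors are on the log2 scale, with 1 value for each probe set and array, and the scale was inferred from their range (2.60 to 15.3). Per the submitters' processing notes they came from RMA, which equalises the distributions of the arrays and so hides differences in total RNA per cell, and per the labels' protocols the RNA was labelled by in vitro transcription. The number of arrays limits the precision. Of 16556 probe sets, 64 were controls and 1222 had no name. The platform annotation gave the other 15270 a symbol each, 0 symbols changed on update by Entrez ID, and of 3 genes with more than 1 probe set the brightest was kept, leaving 15267 genes.

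Using limma 3.58.1 (R 4.3.3), 1 mean per group was fitted over the 8 arrays (4 residual and 4.13 prior degrees of freedom), and 6 comparisons were drawn from it, two-sided, with Benjamini-Hochberg adjustment over all genes. The code was tested on simulated data. The members, classes and lists were chosen with earlier results of these data known. Genes called in the first comparison, and Atf4, Xbp1, Ern1, Atf6, Hspa5, Ddit3 and Asns in any case, are given array by array. In the other comparisons up to 6 called genes with the smallest adjusted p are given, ties included, and of each further list up to 3 called in the first comparison. Between the siRNAs and in the comparisons with the 48 h arrays other members are given as well, so the genes named there are not the top 6 alone. Promoter sequences are from RefSeq (GRCm38.p6). Alternatives were 2 other scalings, other variance models, a filter on dim genes, a replicate term, a lung covariate, a fit without the 48 h arrays and fits without each array.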

Additional observations from a re-analysis of the deposited data

How the results depend on the processing

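In 17 other settings no called difference changed sign. For comparisons with the 48 h arrays there were 15, since a fit without these arrays gives no value and the lung covariate, which follows time, was not applied. The settings are not all distinct, because leaving out either array of a group outside a comparison gives the same fit. Such a fit leaves the difference as it was and changes only the estimate of the spread and its degrees of freedom. Scaling moved the median of all genes by less than 0.1. In the first comparison Ern1 lost its call with quantile normalisation (limma, adjusted p = 0.0527) and Hyou1 with median centring (0.0501). Both lost theirs with an intensity trend (0.068 and 0.064) or a robust trend (0.066 and 0.060). Unmoderated fits ended the calls of Ern1, Atf3, Atf5, Ddit3, Stc2, Phgdh, Shmt2, Sdf2l1 and Hyou1 (0.0525 to 0.167). The replicate block ended those of Ern1, Cebpg and Asns (0.0568 to 0.0610). The values that moved are given below, and the cause was not tested unless named. For both siRNAs against control, fits without moderated variances called 1 gene higher (1 Atf4 target) and 9 lower (1 ER gene), and fits without the 48 h arrays called 1 ER gene lower. Over all genes the main model called 1836 higher and 1864 lower. Unmoderated fits called 1276 and 1200, and those without the 48 h arrays 1679 and 1642. Unmoderated fits called 1 gene higher with siRNA 1, 1 higher and 4 lower with siRNA 2, 1 ER gene lower at 96 h than at 48 h, and 1 ER gene higher at 48 h than in controls. Over all genes, main model in brackets, they called 1153 (1778) higher with siRNA 1 and 716 (1223) higher and 630 (1169) lower with siRNA 2. They called 1983 (2817) lower at 96 h than at 48 h, and 1762 (2605) higher at 48 h than in controls. A lung covariate left 1 higher and 5 lower with siRNA 2, beside 843 and 812 of all genes. Between the siRNAs, 1 gene (Ddit4) was higher with an intensity trend, with a robust trend and without dim genes, and 1 (Dnajb9) was lower without dim genes. Over all genes 44, 39 and 68 were higher in these settings, in that order, and 104 were lower without dim genes. Between 96 h and 48 h, quantile normalisation gave 1 Atf4 target higher and a median of -0.71, and leaving out dim genes, which removes members, gave medians of -0.51 for Atf4 targets and 0.12 for ER genes. Quantile normalisation called 2685 of all genes higher there, against 2931 in the main model.

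In each fit without a single array fewer of all genes were called than in the main model, save between the siRNAs. Leaving out single arrays, where the lone array left in a group is assumed to vary like the others, gave these ranges. Both siRNAs against control had 1 to 5 higher and 6 to 13 lower genes, 1 to 5 higher and 4 to 8 lower Atf4 targets, 0 to 3 lower ER genes and an ER median of -0.16 to -0.11. Counts were 1 to 4 higher and 9 to 13 lower with siRNA 1, 0 to 3 higher and 2 to 7 lower with siRNA 2, and 0 between the siRNAs. At 96 h against 48 h, 3 to 4 genes were higher and 15 to 18 lower, with 1 Atf4 target higher in each fit, 1 to 2 ER genes lower and an ER median of 0.052 to 0.145. At 48 h against controls, 13 to 16 Atf4 targets were higher, the Atf4 median was 0.65 to 0.82, the ER median -0.29 to -0.20, and 1 to 2 ER genes were higher. Replicate numbers are shared between groups, but deviations of same-numbered arrays correlated at -0.056 to 0.14, so pairing was not shown. With the replicate block 12 genes were lower and 4 higher in the first comparison, and 1 Atf4 target was higher at 96 h than at 48 h. Over all genes this block gave 1707 lower and 1696 higher in the first comparison, and 2794 higher at 96 h than at 48 h. No detection limit was set for genes with low values.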

Other observations

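The heat shock response of the cytosol, a separate arm of protein quality control, was measured through 7 genes. With both siRNAs at 96 h 2 were lower and 1 higher, beside 12.2% and 12.0% of all genes, with a median of -0.052. Dnajb1, a co-chaperone of Hsp70, differed by -0.32 ± 0.059 (adjusted p = 0.00614), the inducible Hsp70 gene Hspa1b by -0.29 ± 0.075 (adjusted p = 0.0254) and the co-chaperone gene Dnaja1 by 0.23 ± 0.070 (adjusted p = 0.0457). With the lung covariate Hspa1b and Dnaja1 lost their calls (limma, adjusted p = 0.0791 for each). Dnajb1 was called whichever array was left out. Hspa1b lost its call without control array 1 (adjusted p = 0.146), control array 2 (0.0685), siRNA 1 array 2 (0.0687) or siRNA 2 array 2 (0.0636), and Dnaja1 whichever 96 h array was left out (6 of 8 such fits, adjusted p 0.0663 to 0.180). Hspa1b has a near-identical neighbour, Hspa1a, and its signal is uncertain for that reason. At 96 h against 48 h of siRNA 1, 4 of the 7 were higher and 0 lower, beside 19.2% and 18.5% of all genes, with a median of 0.29. Dnaja1 differed by 0.68 ± 0.080 (adjusted p = 0.000443) and Hspa1b by 0.40 ± 0.086 (adjusted p = 0.00814), and the Hspa1b call was lost without siRNA 1 array 1 (adjusted p = 0.0515) or 48 h array 2 (0.0592). The lung markers were higher on the same 96 h arrays, and their part was not tested.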
